A study of Columba livia with 18 samples.

Results

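The gene models of the cytosolic ribosomal proteins were examined in pigeon hair cells with and without cuticulosomes. Members were all gene models whose annotated similarity gave a symbol of the RPL, RPS, RPLP or RPSA type and a ribosomal protein name, without the mitochondrial ribosomal proteins and the S6 kinases. This rule used names only and found 69 of the 20918 gene models in the table, 41 of the large and 28 of the small subunit. They carried 65 different symbols. Of 79 ribosomal proteins in a hand-written list of the vertebrate set, 61 were found under the rule. The remaining 18, which include RPLP1, RPS18, RPS19 and FAU, were not analysed here. RPL22L1, RPL3L, RPL7L1 and RPS27L are related proteins outside that list.

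Cuticulosomes are iron-rich organelles in the apical part of bird hair cells, the sensory cells of the inner ear. Hair cells came from the basilar papilla, the auditory epithelium, of 9 rock pigeons (Columba livia) aged 1 year, after removal of the lagena and light trypsinization. From every bird, 1 pool of 30 hair cells picked as cuticulosome positive and 1 pool of 30 hair cells picked as lacking a cuticulosome became a library each, so that 9 libraries with cuticulosomes were compared with 9 libraries without cuticulosomes. The birds carried no named treatment or allele, the presence of the organelle was judged by light microscopy, and the libraries were full-length cDNA amplified by PCR. A lane code in the library names divided them into 3 sets of 3 birds, called sequencing runs here. That each code stands for 1 run was inferred and is not stated in the labels.

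A ribosome joins a small subunit, which reads the message, and a large subunit, which makes the peptide bond. Each subunit is an RNA core with many different proteins, most of which are needed in 1 copy per particle. In vertebrates the messages of these proteins are short, very abundant and begin with a pyrimidine tract (the 5' TOP motif) through which the mTOR pathway controls their translation together. No sequence of these gene models was at hand, so none is shown.

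The values were FPKM, fragments per kilobase of transcript scaled to the mapped fragments of the library, which can be compared between genes per length. Differences are given as log2(FPKM + 1) with minus without cuticulosomes, and were tested with limma, with the bird as a block, over the 11393 gene models whose FPKM averaged above 1. How many reads stand behind a value of a single library is not known. The labels gave the bird of each library, so the libraries are paired and birds are the replicates.

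Some libraries stood apart. The library with cuticulosomes of pigeon 450 had the highest summed FPKM, 788454 against 558379 to 655548 in the other libraries, and the lowest relative depth estimated from the steps of its lowest values, 0.509 against 0.615 to 1.43. Pigeon 435 had the most gene models above 0, 16008 with and 13221 without cuticulosomes, against 8855 to 11148 in the libraries of other birds. Summed FPKM of 18 hair cell marker gene models, 14 of them with a mean above 1, ranged from 1529 to 20451 (median 15836) with cuticulosomes and from 4552 to 20147 (median 14442) without cuticulosomes. The lowest sum was in the library with cuticulosomes of pigeon 435, in which the summed supporting cell markers were highest (3292, against 249 to 1484 in all other libraries). Supporting cell sums, over 20 gene models of which 13 had a mean above 1, had a median of 927 with cuticulosomes and of 619 without cuticulosomes. They were higher with cuticulosomes in 5 of 9 birds. Red blood cell sums rested on 6 gene models, 2 of them with a mean above 1, as 5 of 13 symbols were found. These sums were higher with cuticulosomes in 7 of 9 birds. Their median was 2714 (503 to 4690) with cuticulosomes and 943 (475 to 37327) without cuticulosomes, where the highest was that of pigeon 435. Their part in the results on ribosomal proteins was not tested. LOXHD1 of the hair cell list, CDKN1B of the supporting cell list and GATA1 of the red blood cell list were listed at 0 in all 18 libraries.

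Ribosomal protein messages were among the most abundant in both kinds of hair cell. The 69 gene models had a median of 592 for their mean FPKM over 18 libraries (quartiles 281 and 989), against 9.84 for all gene models tested. The median was 626 for the large and 564 for the small subunit. Of the 75 gene models above 1000 FPKM, 16 were members, and members took 21 of the first 100, 43 of the first 200 and 58 of the first 500 ranks. A mean above 100 FPKM was reached by 63 members, 1 lay between 20 and 100 and 5 lay below 20. All 18 values were above 0 in 65 members. Among the 63 members above 100 FPKM, the highest mean was 14.3 times the lowest.

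**Figure D1:**
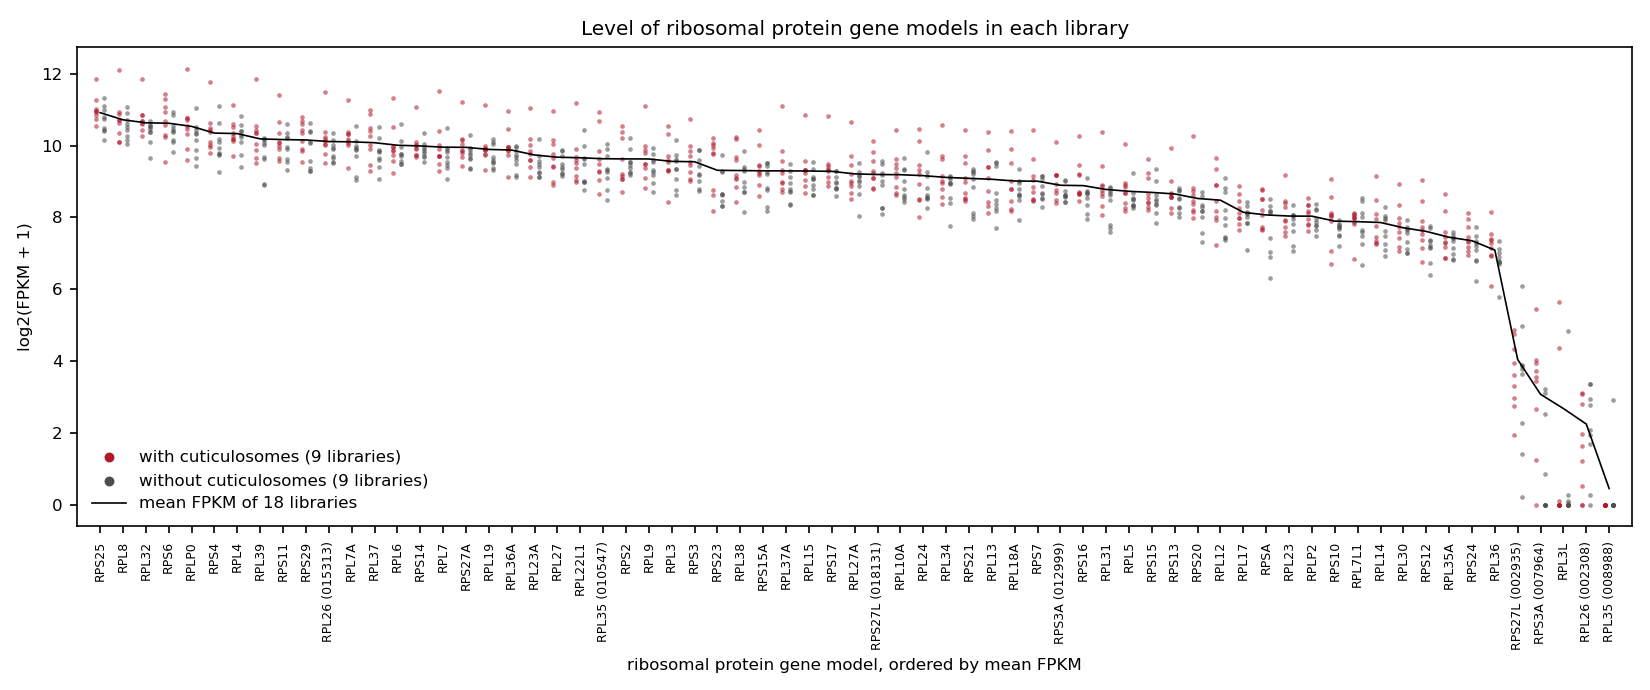
Level of 67 ribosomal protein gene models as log2(FPKM + 1), with 1 point per library (with cuticulosomes left, without cuticulosomes right of each tick) and a line for the mean over 18 libraries. The order runs by mean FPKM, numbers in brackets are the end of the gene model identifier where a symbol has 2 models, and 62 of the models drawn lie above 100 FPKM.

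The order of the members hardly differed between the libraries of a bird. Across the 69 gene models, which share libraries and are not independent, Spearman's rho between the library with and the library without cuticulosomes of the same bird ranged from 0.895 to 0.980 (median 0.955), given as a description.

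Between the kinds of hair cell, ribosomal protein messages were on balance higher with cuticulosomes, by a small amount that no single gene model carried past the adjusted threshold. The fitted log2 difference was above 0 in 67 of the 68 members tested, where 53.9% of all gene models tested were above 0. The median was 0.32, a ratio of 1.25, with quartiles of 0.26 and 0.40. The median over all gene models tested was 0.05 and that over 999 other gene models above 100 FPKM was -0.02. All 63 members above 100 FPKM were above 0, where 49.9% of all gene models at that level were, and they ranged from 0.02 to 0.68, with a median standard error of 0.18 for all members. The groups overlapped in all 63 members above 100 FPKM. Members share libraries and are not independent, so these counts and quartiles are a description. The replicates are the birds, whose member medians ranged from -0.30 to 1.0. FPKM are relative within a library, and in such pools fewer cells of a type and less RNA per cell cannot be told apart.

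At an unadjusted limma p under 0.05, 25 members were higher with cuticulosomes (36.8%), where the share of all gene models was 3.27%, and 0 members were lower, where that share was 2.01%. After adjustment over all 11393 gene models 0 members passed (smallest adjusted p = 0.902, limma), as did 0 of all gene models. The exact two-sided sign-flip test over the 9 birds gave an unadjusted p under 0.05 in 19 members, all higher with cuticulosomes (27.9%, against 2.90% of all gene models). Its smallest p among members was 0.0078, where 9 pairs allow 0.0039. The 25 members were 13 of 40 in the large and 12 of 28 in the small subunit, and the median difference was 0.32 in each subunit. This count depended on how the spread was estimated and on single birds. It was 2 without the intensity trend (background 3.21%), 3 without the bird as a block (background 1.60%) and 4 without run 3 (background 2.10%), but 54 with upper quartile scaling (background 5.83%). It was 12 without pigeon 450 (background 3.46%) or without pigeon 513 (background 2.77%), 16 without pigeon 433 (background 3.43%) or without pigeon 515 (background 2.58%), 38 without pigeon 434 (background 3.41%) and 4 without both pigeons 435 and 450 (background 3.27%). Fitted among the 1062 gene models above 100 FPKM alone, 17 of the 63 members there had such a p (background 4.43%).

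**Figure D2:**
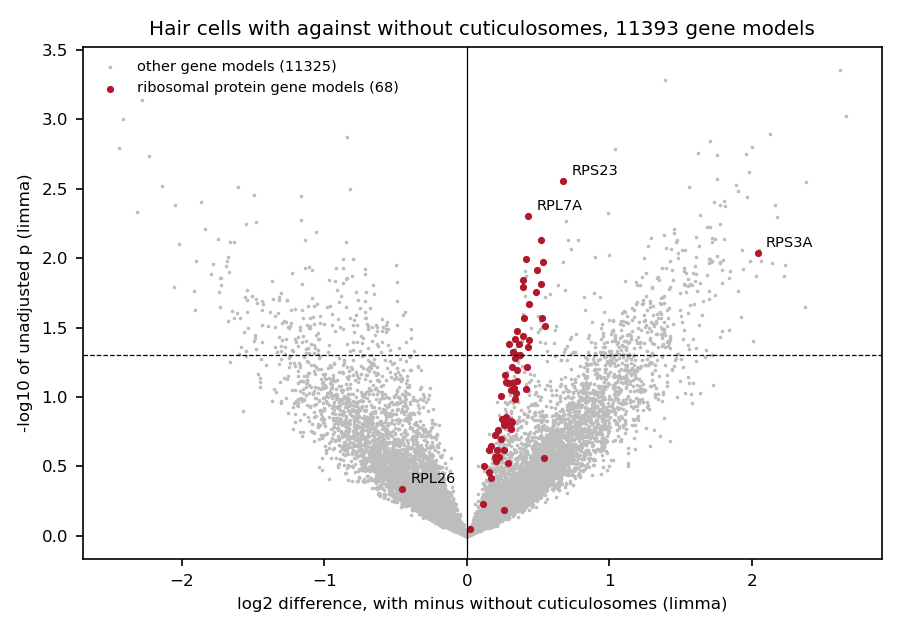
Unadjusted limma p (as -log10) against the log2 difference, with minus without cuticulosomes, for 11393 gene models (ribosomal protein models in red). The dashed line marks an unadjusted limma threshold of 0.05, above which lie 25 of the 68 members, and the scarce RPL26 model is the member left of 0.

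In terms of birds, 13 members (19.1%) were higher with cuticulosomes in 8 of 9 birds, and none in 9, where 1.76% of all gene models were higher in 8 or 9. In 6 or more birds, 55 members were higher (80.9%, against 22.6% of all gene models), and 13 members were higher in 5 or fewer.

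The members moved together within a bird, and birds differed from each other. The median difference over the 68 members was 1.0 in pigeon 450, 0.62 in pigeon 515, 0.61 in pigeon 513, 0.47 in pigeon 435 and 0.44 in pigeon 433. It was 0.05 in pigeon 451, 0.02 in pigeon 514 and -0.01 in pigeon 458, and -0.30 in pigeon 434. Thus 5 birds lay above 0.4, in which 60 to 65 of the 68 members were higher with cuticulosomes, while in pigeon 434 only 12 were higher and 55 were lower. Of the other gene models above 100 FPKM, 47.7% to 57.3% were higher in those 5 birds and 42.2% in pigeon 434. The SD of the paired differences of a member above 100 FPKM had a median of 0.54 over the 9 birds, which fell to 0.30 after the median of the members in each bird was subtracted. For the 999 other gene models above 100 FPKM, the median SD was 0.62 and stayed at 0.62 after the same step with their own bird medians. Those bird medians lay between -0.09 and 0.14, so the step could change little there. The contrast therefore does not show that moving together is particular to the members.

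**Figure D3:**
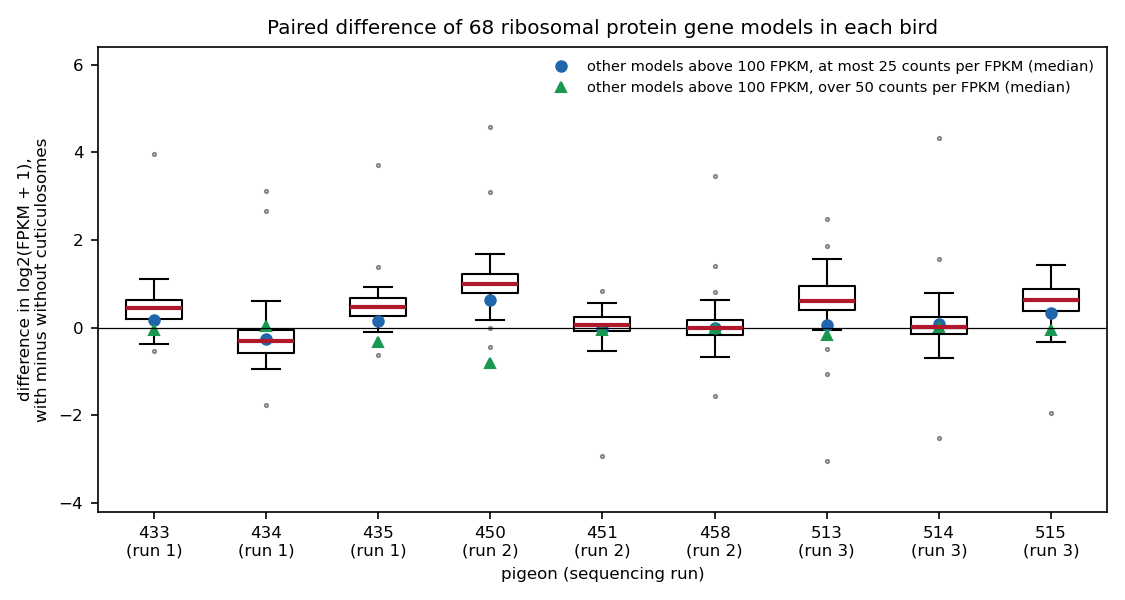
Paired difference in log2(FPKM + 1), with minus without cuticulosomes, of 68 ribosomal protein gene models in each bird (box: quartiles and red median, whiskers to 1.5 times the quartile range, dots beyond). Circles and triangles are medians of other gene models above 100 FPKM with at most 25 and with over 50 counts per FPKM, and pigeon 450 has the highest member median, 1.0.

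The share of summed FPKM held by the 69 members was 8.41% ± 2.40 with cuticulosomes and 6.89% ± 0.892 without cuticulosomes (SD, n = 9 birds each). The paired difference averaged 1.52 percentage points with an SD of 1.98, and it was positive in 7 of 9 birds. The highest share, 13.9%, was that of pigeon 450 with cuticulosomes, against 8.36% without cuticulosomes in the same bird. Pigeon 434 had 5.66% with and 6.60% without cuticulosomes, and pigeon 458 had 7.03% with and 7.31% without. Without pigeon 450 the shares were 7.72% ± 1.3 with and 6.71% ± 0.749 without cuticulosomes, a difference of 1.01 points.

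**Figure D4:**
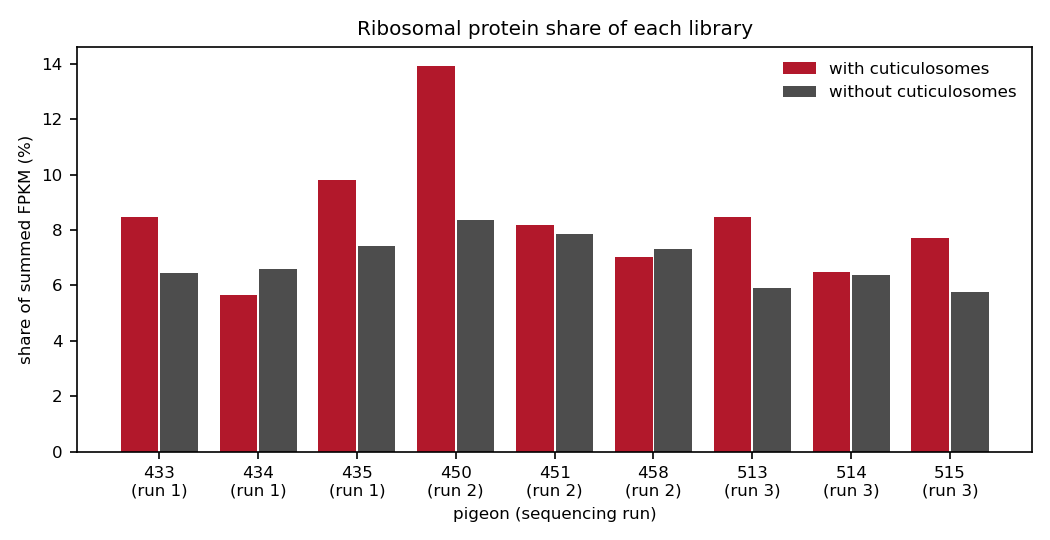
Share of summed FPKM held by 69 ribosomal protein gene models in each library, by pigeon and sequencing run (red, with cuticulosomes; grey, without cuticulosomes). The library of pigeon 450 with cuticulosomes is highest at 13.9%, and the shares of pigeons 434 and 458 are lower with than without cuticulosomes.

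The library of pigeon 450 with cuticulosomes held the highest of the 18 values in 59 of the 63 members above 100 FPKM. The lowest value lay in a library without cuticulosomes in 50 of them, 21 times in pigeon 515 and 15 times in pigeon 513. The next most frequent was the library of pigeon 434 with cuticulosomes, with 9. These counts were made for the members alone. Without the same counts over other abundant gene models, they describe the libraries and show nothing particular to the members.

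**Figure D5:**
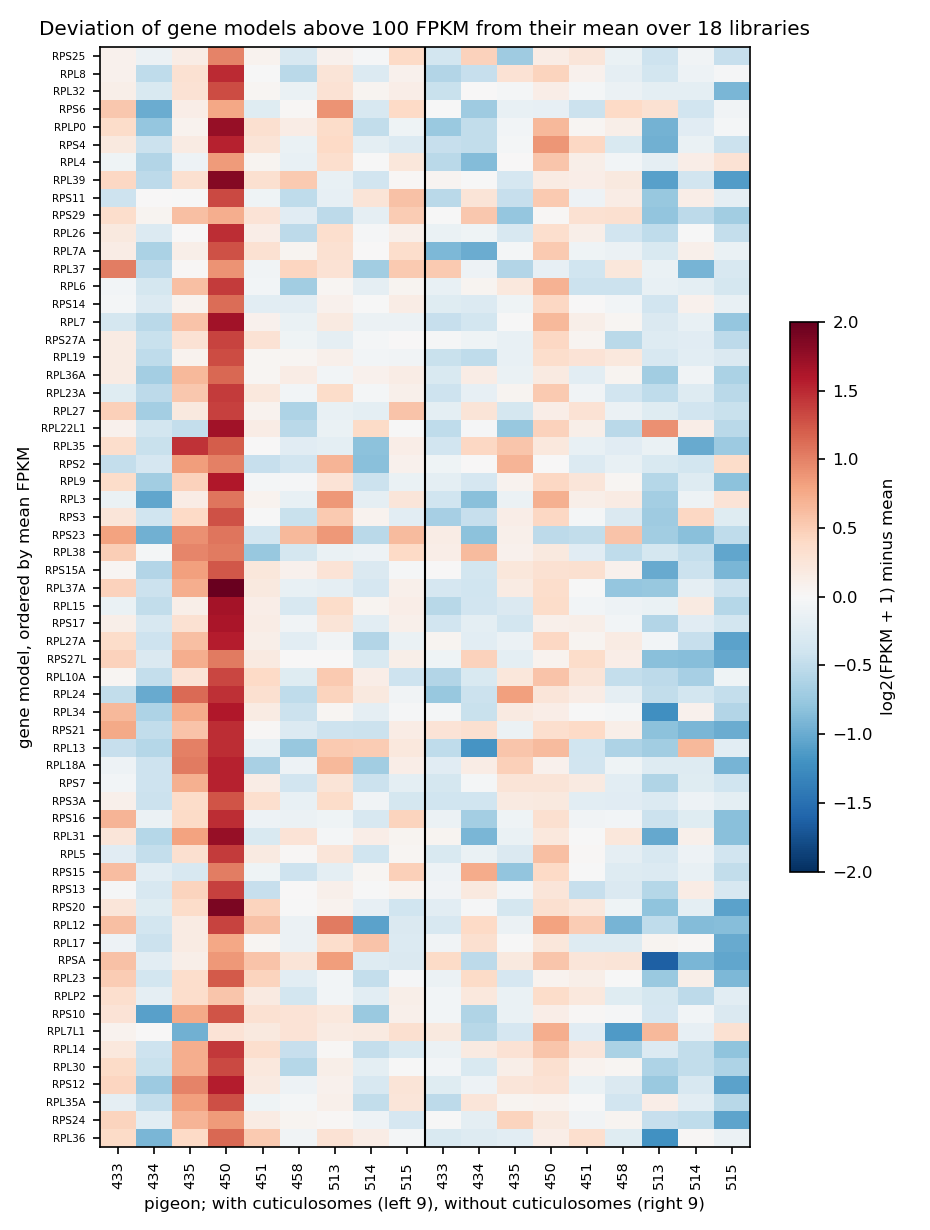
Deviation of 62 ribosomal protein gene models above 100 FPKM from their own mean over 18 libraries, in log2(FPKM + 1) (red above, blue below, colours end at 2 in either direction). The column of pigeon 450 with cuticulosomes is red in nearly all rows and holds the highest value in 58.

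Other measurements were set beside these differences. The authors' mean count divided by the mean FPKM, which is larger for longer transcripts, had a median of 16.3 in members and of 31.7 in other gene models above 100 FPKM. In other gene models above 100 FPKM the median difference was 0.13 where this ratio was at most 25 (365 models), -0.05 where it was 25 to 50 (403 models) and -0.17 where it was over 50 (229 models). In pigeon 450 these medians were 0.64, -0.23 and -0.82. Members at most 25 had a median of 0.33 (49 models, all above 0, 21 at an unadjusted p under 0.05), where 5.75% of the other models of that class were higher at such a p. The 13 members above 25 had a median of 0.32, with all 13 above 0 and 3 higher at an unadjusted p under 0.05. Of the other models, 66.6% (at most 25), 42.9% (25 to 50) and 21.4% (over 50) were above 0. In the same order, 5.75%, 1.49% and 1.31% were higher at such a p. In pigeon 513 the median was 0.61 in members and 0.06 in the other models at most 25, and in pigeon 515 it was 0.62 and 0.33. It was 0.44 and 0.16 in pigeon 433 and 0.47 and 0.15 in pigeon 435. Pigeon 434 had -0.30 and -0.27, and pigeon 451 had 0.05 and -0.04. Pigeon 458 had -0.01 and 0.001, and pigeon 514 had 0.02 and 0.09. The part of this ratio and of depth in the result was not tested. Relative depth was lower with than without cuticulosomes in 7 of 9 birds, by 1.11 on the log2 scale in pigeon 450 and by 0.97 in pigeon 458, where the member medians were 1.0 and -0.01.

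The 3 sequencing runs each gave a positive median, 0.19 in run 1 (pigeons 433, 434 and 435), 0.36 in run 2 (pigeons 450, 451 and 458) and 0.44 in run 3 (pigeons 513, 514 and 515). The medians of all gene models tested in those runs were 0.01, -0.02 and 0.14. In a limma test of cell type by run, 1 member had an unadjusted p under 0.05, the scarce RPS3A model (0.046), and 0 after adjustment, where 4.55% of all gene models had such a p.

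Of the highest members, RPS25, a protein of the small subunit head, had 1493 to 3704 FPKM (median 1977) with cuticulosomes and 1143 to 2561 FPKM (median 1699) without cuticulosomes. It ranked at position 19 of all gene models, with means of 2129 ± 645 and 1737 ± 462 FPKM (SD, n = 9 each, with and without cuticulosomes). Its groups overlapped, it was higher in 6 of 9 birds, and its log2 difference was 0.29 (SE 0.15, exact p = 0.145). RPL8, near the peptidyl transferase centre of the large subunit, had 1093 to 4431 FPKM (median 1668) with cuticulosomes and 1052 to 2153 FPKM (median 1475) without cuticulosomes. In 5 birds it was higher, by 0.20 on the log2 scale (SE 0.14, exact p = 0.234), and the difference was 0.093 without pigeon 450. Others among the highest were RPL32, RPS6 and RPLP0.

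RPL32, a large subunit protein, had 1231 to 3735 FPKM (median 1636) with cuticulosomes and 805 to 1658 FPKM (median 1402) without cuticulosomes. It was higher in 7 birds, with a log2 difference of 0.40 (SE 0.15, exact p = 0.039, unadjusted). RPS6, the substrate of the S6 kinases, had 746 to 2790 FPKM (median 1644) with cuticulosomes and 909 to 1973 FPKM (median 1346) without cuticulosomes. Its log2 difference was 0.27 (SE 0.14, exact p = 0.098), higher in 7 birds. All of these groups overlapped, and the top value of RPS25, RPL8, RPL32 and RPLP0 was that of pigeon 450 with cuticulosomes.

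The members with the smallest p were spread over both subunits. RPS23, at the decoding centre of the small subunit and known for its part in reading accuracy, had 290 to 1192 FPKM (median 892) with cuticulosomes and 316 to 846 FPKM (median 399.5) without cuticulosomes. The groups overlapped widely, with 437 and 391 FPKM in pigeons 451 and 514 with cuticulosomes. Without cuticulosomes, pigeons 433, 435 and 458 had 625, 609 and 846 FPKM. Pigeon 434 had 290 FPKM with and 320 without. In the other 8 birds the value was higher with cuticulosomes, and the means were 795 ± 333 and 473 ± 180 FPKM (SD, n = 9 each, with and without cuticulosomes). The log2 difference of 0.68 (SE 0.19) was the highest of the members above 100 FPKM (limma unadjusted p = 0.0028, adjusted p = 0.902, exact p = 0.016), with a range of 0.56 to 0.78 when each bird was left out.

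RPL7A, a large subunit protein that binds its RNA core during assembly, had 665 to 2492 FPKM (median 1151) with cuticulosomes and 521 to 1492 FPKM (median 954) without cuticulosomes. Pigeon 514 was the bird in which it was lower, with 1034.5 FPKM with against 1113 FPKM without cuticulosomes. The log2 difference was 0.43 (SE 0.13, limma unadjusted p = 0.0050, exact p = 0.0078), 0.35 to 0.50 with each bird left out.

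RPL37A, a small zinc-binding protein of the large subunit, had 414 to 2203 FPKM (median 597) with cuticulosomes and 324 to 714 FPKM (median 443) without cuticulosomes, with the top value in pigeon 450. It was higher in 7 birds, by 0.52 (SE 0.17, limma unadjusted p = 0.0074, exact p = 0.016). RPL37, also a zinc-binding protein of the large subunit, had 627 to 2047 FPKM (median 1231) with cuticulosomes and 531 to 1458 FPKM (median 898) without cuticulosomes. Higher in 8 birds and lower in pigeon 434, it had a log2 difference of 0.42 (SE 0.14, limma unadjusted p = 0.010, exact p = 0.020). Both genes overlapped between the groups.

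The stalk of the large subunit, which recruits elongation factors, is represented by RPLP0 at its base, RPLP2 on it and RPL12 beside it. RPLP0 had 781 to 4509 FPKM (median 1484) with cuticulosomes and 696 to 2109 FPKM (median 1288) without cuticulosomes. It was higher in 6 birds, by 0.38 on the log2 scale (SE 0.18, exact p = 0.148), with means of 1729 ± 1096 and 1236 ± 419 FPKM (SD, n = 9 each, with and without cuticulosomes). RPLP2 had 197 to 375 FPKM (median 278) with cuticulosomes and 177 to 332 FPKM (median 234) without cuticulosomes, a log2 difference of 0.16 (SE 0.16, exact p = 0.141). RPL12 had 151 to 811 FPKM (median 353) with cuticulosomes and 165 to 549.5 FPKM (median 253) without cuticulosomes, a log2 difference of 0.42 (SE 0.21, exact p = 0.102), or 0.28 without pigeon 513. It was among the 5 most variable members over the 18 libraries.

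RPSA, a small subunit protein at the exit of the message that is also known as the laminin receptor, had 200.1 to 446 FPKM (median 292) with cuticulosomes and 77.9 to 361 FPKM (median 280.0) without cuticulosomes. With cuticulosomes it was higher in 8 birds, by 0.55 on the log2 scale (SE 0.23, limma unadjusted p = 0.031, exact p = 0.012). Without pigeon 513 the difference was 0.31, and without pigeons 513, 514 and 515, which shared a sequencing run, it was 0.18. In those birds the libraries without cuticulosomes had 77.9, 129 and 119 FPKM, against 169 to 361 FPKM in the other birds. Their libraries with cuticulosomes had 435, 203 and 200.1 FPKM.

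The members closest to no difference, chosen after their values were seen, were RPS2 at 0.02 (SE 0.18, higher in 3 birds, -0.098 to 0.087 with each bird left out), RPL7L1 at 0.12 (SE 0.21) and RPL4 at 0.12 (SE 0.12, higher in 4 birds). RPS2 lies at the entry of the message, and RPL4 lines the tunnel of the large subunit. RPS2 had 415 to 1497 FPKM (median 586) with cuticulosomes and 577 to 1193 FPKM (median 699) without cuticulosomes.

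For 4 symbols the table held a pair of gene models, 1 abundant and 1 scarce. The study kept at most 1 hit per read, so reads of near-identical copies could have been left out or set on either model, and the scarce values are uncertain. RPS27L, related to RPS27, had 446 to 1127 FPKM (median 597) with cuticulosomes and 271 to 757 FPKM (median 515) without cuticulosomes at CLIV_018131 on scaffold 430. This abundant model was higher in 6 birds, by 0.43 (SE 0.19, limma unadjusted p = 0.039, exact p = 0.086). Its second model, CLIV_002935 on scaffold 87, had 2.86 to 28.4 FPKM (median 11.1) with cuticulosomes and 0.153 to 67.1 FPKM (median 12.8) without cuticulosomes, 2.64% of the mean of the first. Its log2 difference of 0.26 (SE 0.56) turned to -0.09 without pigeon 450.

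RPS3A, a small subunit protein near the exit of the message, had 336 to 1091 FPKM (median 488) with cuticulosomes and 343 to 522 FPKM (median 392) without cuticulosomes at CLIV_012999 on scaffold 86. It was higher in 7 birds, by 0.32 (SE 0.16, exact p = 0.047). Its scarce model, CLIV_007964 on scaffold 220, reached 1.56% of that mean. With cuticulosomes that model had 14.5, 5.35, 12.2, 42.5, 15.5, 9.93, 10.9, 0 and 1.38 FPKM in pigeons 433, 434, 435, 450, 451, 458, 513, 514 and 515. Without cuticulosomes it had 0, 0, 0, 0.822, 8.26, 0, 7.68, 4.71 and 0 FPKM in the same birds. It was thus listed at 0 in 1 library with and in 5 libraries without cuticulosomes, was higher in 8 birds, and was lower in pigeon 514. The difference was 2.04 (SE 0.69, limma unadjusted p = 0.0092, exact p = 0.031), a value on the log2(FPKM + 1) scale.

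RPL26, near the exit of the tunnel of the large subunit, had 727 to 2905 FPKM (median 1119) with cuticulosomes and 734 to 1313 FPKM (median 956) without cuticulosomes at CLIV_015313 on scaffold 395. Its difference was 0.32 (SE 0.15, exact p = 0.074). The scarce model, CLIV_002308 on scaffold 38, was the member with a difference below 0. It had at most 7.60 FPKM with cuticulosomes (median 2.08, listed at 0 in 2 libraries) and at most 9.36 FPKM without cuticulosomes (median 3.24, listed at 0 in 1 library), a difference of -0.45 (SE 0.60, exact p = 0.461). RPL35, also near that exit, had 404 to 1959 FPKM (median 721) with cuticulosomes and 356 to 1049 FPKM (median 644) without cuticulosomes at CLIV_010547 on scaffold 686, a difference of 0.33 (SE 0.18, exact p = 0.109). The scarce RPL35 model, CLIV_008988 on scaffold 235, was listed at 0 in 17 libraries and had 6.59 FPKM in the library without cuticulosomes of pigeon 514. With a mean of 0.366 FPKM it was the member that was not tested.

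Among the related proteins outside the canonical set, RPL22L1, the relative of RPL22, had 503 to 2350 FPKM (median 728) with cuticulosomes and 432 to 1380 FPKM (median 721) without cuticulosomes. Its difference was 0.17 (SE 0.19, exact p = 0.438), or 0.036 without pigeon 450 and 0.32 without pigeon 513. RPL7L1, a relative of RPL7, had 115 to 280.1 FPKM (median 252) with cuticulosomes and 102 to 369 FPKM (median 200.1) without cuticulosomes, and its lowest value with cuticulosomes was that of pigeon 435. RPL7 itself had 626 to 2916 FPKM (median 841) with cuticulosomes and 533 to 1431 FPKM (median 825) without cuticulosomes. Its difference was 0.27 (SE 0.15), or 0.18 without pigeon 450. The log2 ratio of RPL7L1 to RPL7 was -2.10 ± 0.80 with cuticulosomes and -1.95 ± 0.71 without cuticulosomes (SD, n = 9 each), a difference of -0.16 ± 1.0 (exact two-sided sign-flip p = 0.637, adjusted over 2 pairs 0.715).

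RPL3L, in mammals the form of RPL3 made in striated muscle, was above 1 FPKM in 3 libraries. These were the libraries with cuticulosomes of pigeons 514 (19.8) and 515 (49.2) and the library without cuticulosomes of pigeon 515 (27.7). The remaining libraries held at most 0.195. It lies on scaffold 605, as does RPS2. RPL3, which sits by the peptidyl transferase centre, had 342 to 1485 FPKM (median 740) with cuticulosomes and 396 to 1148 FPKM (median 653) without cuticulosomes. Its difference was 0.20 (SE 0.17), or 0.027 without pigeon 513. The log2 ratio of RPL3L to RPL3 differed by 0.34 ± 1.66 between the cell types (exact two-sided sign-flip p = 0.715, adjusted over 2 pairs 0.715). In birds other than 514 and 515, RPL3L was so near 0 that, with 1 added to each FPKM, the ratio mostly followed RPL3. This test therefore cannot tell whether RPL3L changed relative to RPL3. Of 9 pairs of a relative and its parent gene that were looked for, these 2 had means above 1 FPKM for both genes and were tested.

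RPL36, named after its values were seen, had 66.9 to 282 FPKM (median 156) with cuticulosomes and 54.2 to 160.3 FPKM (median 109) without cuticulosomes, yet a mean count of 0 in the authors' column. The same mismatch occurred in 3 gene models above 100 FPKM. The abundant RPS3A model stood at the opposite end, with 110 counts per FPKM, the highest of the members.

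The machinery around the ribosome was followed in lists named for their roles, from the same fit. No gene of the elongation factors (7 models tested, 5 above 0, median 0.11), of the initiation factors (35 tested, 18 above 0, median 0.02) or of ribosome assembly and the nucleolus (54 tested, 27 above 0, median 0.01) had an unadjusted limma p under 0.05. Of all gene models tested, 53.9% were above 0, and 3.27% were higher and 2.01% lower at such a p. With 7 models tested, the lack of such a gene says little for the elongation factors, and no list was tested as a set. EEF2, which moves the ribosome along the message, averaged 570 ± 309 FPKM with cuticulosomes and 481 ± 159 FPKM without cuticulosomes (SD, n = 9 each). EIF4A2, a helicase of initiation, averaged 1389 ± 393 FPKM with cuticulosomes and 1422 ± 208 FPKM without cuticulosomes. NPM1, an assembly factor, averaged 407 ± 122 FPKM with cuticulosomes and 339 ± 76.0 FPKM without cuticulosomes. Their log2 differences, in that order, were 0.08 (SE 0.21), -0.10 (SE 0.16) and 0.22 (SE 0.19), higher in 5, 6 and 7 birds. The other genes among the 3 highest of each list were as follows. EEF1A2 was at 0.12 (SE 0.15) and EEF1D at 0.36 (SE 0.21). EIF5 was at -0.11 (SE 0.19) and EIF1 at 0.36 (SE 0.18). EBNA1BP2 was at 0.04 (SE 0.24) and NOP16 at 0.26 (SE 0.20). In pigeon 450 the medians of the elongation, initiation and assembly lists were 0.26, -0.48 and -0.78, where that of the ribosomal proteins was 1.0. The lists described next had medians of 0.54 (other 5' TOP messages) and 0.04 (control of their translation) in that bird.

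Other messages of the 5' TOP class had a median of 0.26 over 6 gene models. Of these, 5 were above 0, where 53.9% of all gene models were. None had an unadjusted limma p under 0.05, where 3.27% of all gene models were higher and 2.01% lower at such a p. GNB2L1, a scaffold protein bound to the small subunit, averaged 728 ± 242 FPKM with cuticulosomes and 607 ± 188 FPKM without cuticulosomes. NACA and TPT1 had differences of 0.20 (SE 0.18) and 0.27 (SE 0.17).

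In the list on control of their translation, with 13 gene models tested and a median of 0.38, 1 model was higher and 1 lower at an unadjusted limma p under 0.05, where 3.27% of all gene models were higher and 2.01% lower, and none passed after adjustment. RHEB, the small GTPase that activates mTOR, averaged 207 ± 54.0 FPKM with cuticulosomes and 147 ± 43.7 FPKM without cuticulosomes (SD, n = 9 each), a log2 difference of 0.51 (SE 0.21, higher in 7 birds, limma unadjusted p = 0.028, adjusted p = 0.902). MTOR, the kinase itself, averaged 2.05 ± 3.42 FPKM with cuticulosomes and 5.57 ± 4.26 FPKM without cuticulosomes, a log2 difference of -1.32 (SE 0.51, higher in 1 bird, limma unadjusted p = 0.019, adjusted p = 0.902). EIF4EBP1, a repressor of initiation, averaged 114 ± 58.0 FPKM with cuticulosomes and 82.3 ± 34.2 FPKM without cuticulosomes (limma unadjusted p = 0.139). The list median of 0.38 was the value of RPS6KA3 (SE 0.49, limma unadjusted p = 0.447), which averaged 12.5 FPKM. Of the models tested in this list, RHEB and EIF4EBP1 alone averaged more.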

How the data were processed

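RNA of pooled hair cells was measured in 18 libraries. The authors aligned reads with TopHat 1.4.1 to a Columba livia genome and gene models (M.D. Shapiro), with at most 1 hit per read, and estimated FPKM with Cufflinks 1.3.0, bias correction included. The authors then counted with HTSeq 0.6.1p1 and compared the groups with DESeq2 1.10.1. The deposited signal column is their mean of counts divided by size factors and was used for counts per FPKM alone, while their fold changes, standard errors, test scores and p-values were not used. The paper gives an approximate number of reads per sample, but counts per library were not at hand. The depth of each single library is thus unknown and was estimated, relatively, from the steps of FPKM values under 0.3.

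FPKM were tested as log2(FPKM + 1), mean FPKM above 1, with limma 3.58.1 (R 4.3.3), trend, bird as a block and Benjamini-Hochberg adjustment over 11393 gene models (threshold 0.05). Single members were compared by exact two-sided sign-flip permutation over 512 sign patterns. The exact p and counts past 0.05 are unadjusted. The rest used Python 3.11.15 (scipy 1.17.1, numpy 2.4.6, matplotlib 3.10.9, pandas 2.3.3). Pairing came from bird numbers. Over all gene models tested, the libraries of a bird deviated together (median correlation 0.183, lowest 0.121). Over the 68 members tested, this correlation had a median of 0.471 and ranged from -0.095 to 0.781.

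Members named were the 6 highest and 6 lowest, the 5 smallest p in each direction, the 5 most variable, relatives and their parent genes, stalk proteins, RPSA and symbols with 2 gene models, and of the other lists the 3 highest and any with p under 0.05. Of the lower direction 1 member existed. Some members under this rule are not reported here. Members and lists were chosen with earlier results of these data known. Alternatives changed the block, filter, pseudocount, scaling, trend and robustness, and left out birds or runs. Leaving out pigeons 435 and 450 together, a filter at 100 FPKM, relative depth and the classes of counts per FPKM were added after the data had been seen. The fit was tested on simulated data, drawn independently for each gene model and library and without bird effects. That test therefore does not show how the fit behaves for paired libraries or for members that move together.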

Additional observations from a re-analysis of the deposited data

Results flagged for a closer look

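Values far from the others of their group were looked for among the named members and the summed share, in 56 groups of 9 libraries, and 12 were found. The rule marks about 5% of groups that are independent and normally spread. These groups share libraries and some hold mostly values of 0, so 5% is not their chance rate. In 9 of them the library with cuticulosomes of pigeon 450 was the highest, and the gap to the next library took about 0.50 to 0.63 of the range of the group. Its values were 4431 FPKM for RPL8 (next 1949), 3735 for RPL32 (next 1861), 4509 for RPLP0 (next 1738), 2905 for the abundant RPL26 model (next 1324) and 2916 for RPL7 (next 1352). They were 2350.2 FPKM for RPL22L1 (next 952), 2203 for RPL37A (next 920), 1091 for the abundant RPS3A model (next 584) and 13.9% for the ribosomal protein share (next 9.79%). These 9 values come from a single library, which also had the highest summed FPKM and the lowest relative depth of the 18, and the part of these in the values was not tested.

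RPL7L1 was lowest with cuticulosomes in pigeon 435, at 115 FPKM (next 226). RPL3L was highest without cuticulosomes in pigeon 515, at 27.7 FPKM (next 0.195). The scarce RPL35 model was highest without cuticulosomes in pigeon 514, at 6.59 FPKM, with 0 in the rest of that group.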

How the results depend on the processing

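The count of 0 members past the adjusted threshold was the same in every alternative fit run. The count of 25 members higher at an unadjusted limma p under 0.05 was 3 with no replicate block, 10 with the run instead of the bird as a covariate (background 1.97%), 54 with upper quartile scaling, 2 without the trend, 10 without run 2 (background 3.21%), 4 without run 3 and 4 without pigeons 435 and 450, and 12 to 38 when each bird was left out. The cause was not tested. The block thus moved this count by more than 1.5 times and no adjusted call. Upper quartile scaling shifted the median of all gene models by 0.14, and 86.1% of all calls at that p were then higher, against 61.9%. Relative to all gene models the member median was 0.27, 0.32 under that scaling, 0.13 without pigeon 450 and 0.11 without pigeons 435 and 450. The member median itself ranged from 0.19 to 0.51 and the number of members above 0 from 63 to 67. No member varied with the run after adjustment, and the count of 1 at an unadjusted p under 0.05 was 0 with a pseudocount of 0.1 and with no filter. Of 592 values of 26 named models, 585 kept their direction. Those that turned were RPL7L1 (-0.053 without run 2, -0.044 to 0.21 with each bird left out), the scarce RPS27L model (-0.16 without run 2, -0.23 without pigeons 435 and 450, -0.093 to 0.67 with each bird left out), the scarce RPL26 model (0.20 without run 2) and RPL3L (-0.043 without run 3). RPS2, named after its values were seen and not among the 26, ranged from -0.098 to 0.087 with each bird left out. The difference in the ratio of RPL7L1 to RPL7 ranged from -0.38 to 0.0059 when each bird was left out, the highest without pigeon 450. That of RPL3L to RPL3 ranged from -0.16 (without pigeon 514) to 0.58, and was -0.097 without run 3.

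Without read counts per library no counting error is given. The authors' mean of scaled counts was 47.1 for the scarce RPS3A model, 43.1 for that of RPL26 and 3.49 for that of RPL35. FPKM are relative, and more ribosomal protein RNA per cell cannot be told apart from less of other RNA.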
